A study of Mus musculus with 9 samples.

Results

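Among the Ly6Chi CD115+ cells of mouse BM, those that carry the cytokine receptor Flt3 on their surface fall into CD11c− cells, called R2, and CD11c+ cells, called R3, and the transcriptomes of these populations were compared gene by gene. The comparison took the 3 arrays labelled R3 and the 3 labelled R2, 6 of the 9 arrays of the study, and the 3 arrays of R1, the Flt3−CD11c− cells of the same parent gate, entered only through the shared estimate of the spread between arrays. All cells were sorted from steady-state BM of C57Bl/6 mice at 8 weeks of age, none of them treated, and the study's methods place R1–R3 among lineage-negative cells that lack MHCII and carry SIRPα. Amplified RNA, from 1 ng per sample, was read on Affymetrix whole-transcript mouse gene arrays, with 1 array of each population under each of 3 label dates. The sources used here do not say whether each array of a population stands for different mice, so that p-values refer to array-to-array spread, perhaps technical, and the number of arrays limits the precision.

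Ly6Chi monocytes are made in the BM, enter blood and inflamed tissue, and become macrophages or monocyte-derived DCs. They carry granule proteins, receptors for antibody and sensors of bacterial products. Pre-DCs are precursors committed to the DC lineage, depend on Flt3 signaling, and seed tissues with cells that take up antigen, crawl to lymphoid organs, and present antigen to T cells. CD11c, the α chain of an integrin that pairs with the β2 chain, is the classical surface marker of DCs.

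Levels are log2 intensities of 1 probe set per gene. Median intensity lay between 59.99 and 64.39 on the 6 arrays, and the correlation over genes was 0.993 to 0.997 within a population and 0.977 to 0.981 between R2 and R3. *Itgax*, which encodes CD11c, checked the sort, at 5.30, 6.04, and 6.18 on the R2 arrays and 10.79, 10.85, and 10.70 on the R3 arrays. Its fold change follows from the gates and is not a result. *Flt3*, whose protein was gated as present in both populations, was at 7.70, 8.02, and 8.01 in R2 and 10.99, 11.10, and 11.03 in R3. This 8.75-fold higher level in R3 (adjusted p = 2.37e-05) is not set by the definition of the gates, and its cause was not tested. *Csf1r*, which encodes CD115 and was gated in both populations, differed by −0.24 on the log2 scale (standard error 0.08, adjusted p = 0.14, not called). *H2-Ab1*, an MHCII chain, was at 7.66, 9.63, and 9.18 in R2 and 10.28, 11.34, and 11.37 in R3, although the gate is described as MHCII-negative. All R3 arrays were above all R2 arrays, the adjusted p of 0.048 was just under the threshold, and it became 0.052 to 0.145 without R2 replicate 1 or 3 or any 1 R3 array. The paper itself reports MHCII expression in R2 and R3 of BM and blood, from flow cytometry and arrays.

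Of 15 plasmacytoid DC markers 10 were higher in R3, each at least 2-fold, among them *Siglech*, *Spib*, *Tcf4*, and *Cd300c*, and 1, *Plac8*, named after its values were seen, was lower, with a mean level of the list of 6.71 to 6.88 on the R2 arrays and 8.38 to 8.74 on the R3 arrays. Of 14 conventional DC markers besides *Itgax* and *Flt3*, R3 had 7 called higher and 1 lower, and of 11 monocyte markers 5 were lower in R3, among them *Lyz2* and *F13a1*, and 2 higher, *Klf4* and *Cx3cr1*. The conventional DC marker that was lower was *Id2*. The mean level of these 14 conventional DC markers was 7.51 to 7.98 on the R2 arrays and 8.79 to 9.06 on the R3 arrays, and 7.39 to 7.68 against 8.50 to 8.64 without the MHCII genes *H2-Ab1* and *Cd74*. That of the monocyte list was 10.22 to 10.51 and 9.13 to 9.67, so that none of these lists overlapped between the populations. This was not particular to them. The B cell list was at 5.495 to 5.619 in R2 and 5.937 to 5.999 in R3, and the natural killer cell list at 4.547 to 4.568 and 4.707 to 4.787. The resident macrophage and neutrophil lists did not overlap either, whereas the T cell, erythroid, platelet, basophil and mast cell, and progenitor lists did. The part of these cell types in the single genes described below was not tested.

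Some arrays stood apart in genes of other cells. Late granule genes of neutrophils were uneven within R3: *Ngp* was at 10.73, 6.27, and 9.03 in R3 and 7.48, 5.85, and 6.51 in R2, and *Ltf* at 8.92, 4.93, and 7.03 in R3 and 5.47, 5.26, and 5.25 in R2, so that R3 replicates 1 and 3 were above every R2 array and R3 replicate 2 was not. Neither gene was called. Over the 17 neutrophil markers, of which 7 were lower in R3 and none higher, the mean level was 8.40 to 8.79 on the R2 arrays and 8.10, 6.44, and 7.54 on the R3 arrays, and *Ly6g*, whose protein the lineage gate removed, stayed between 4.21 and 4.87 on all 6. The platelet genes *Pf4* and *Ppbp* were high on R2 replicates 2 and 3, with *Pf4* at 4.68, 9.35, and 8.90 in R2 and 4.96, 5.06, and 5.14 in R3, and the mean of the 8 platelet markers was 6.14, 7.49, and 7.38 in R2 against 6.08 to 6.19 in R3, with none called by limma (3 at an unadjusted p under 0.05, none by the methods' test). No marker of 13 for T cells, 8 for erythroid cells, or 10 for progenitors was called by limma (at an unadjusted p under 0.05, 1, 0, and 3 of them; none by the methods' test), while *Cd22* and *Blnk* of 12 B cell markers and *Klrk1* of 11 natural killer cell markers were higher in R3 and *Mcpt8* of 10 basophil and mast cell markers was lower. Every called gene that is described below with its level on each array kept its call when any 1 of the 6 arrays was left out, except *Sqle*, whose value is given below, and *Tlr4*, for which this was not run. The part of other cells in the results was not tested, and in sorted bulk samples fewer cells of a type and less RNA per cell cannot be told apart.

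Of 19937 genes, 1903 (9.55%) were called at an adjusted p under 0.05, 967 higher in R3 (4.85%) and 936 lower (4.69%), with a median log2 fold change of −0.007 over all genes. In each of the 1903 the R2 and R3 arrays did not overlap, as in 24.8% of all genes. At least 2-fold apart were 591 of them (2.96%), 268 higher (1.34%) and 323 lower (1.62%). Dim genes seldom pass: among the genes above the median level 17.4% were called, 8.93% higher and 8.49% lower. Lists of expressed families were read against these shares, and lists were not tested as such. Their members were chosen with earlier results of these data known, so that the shares called may reflect that choice.

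**Figure D1:**
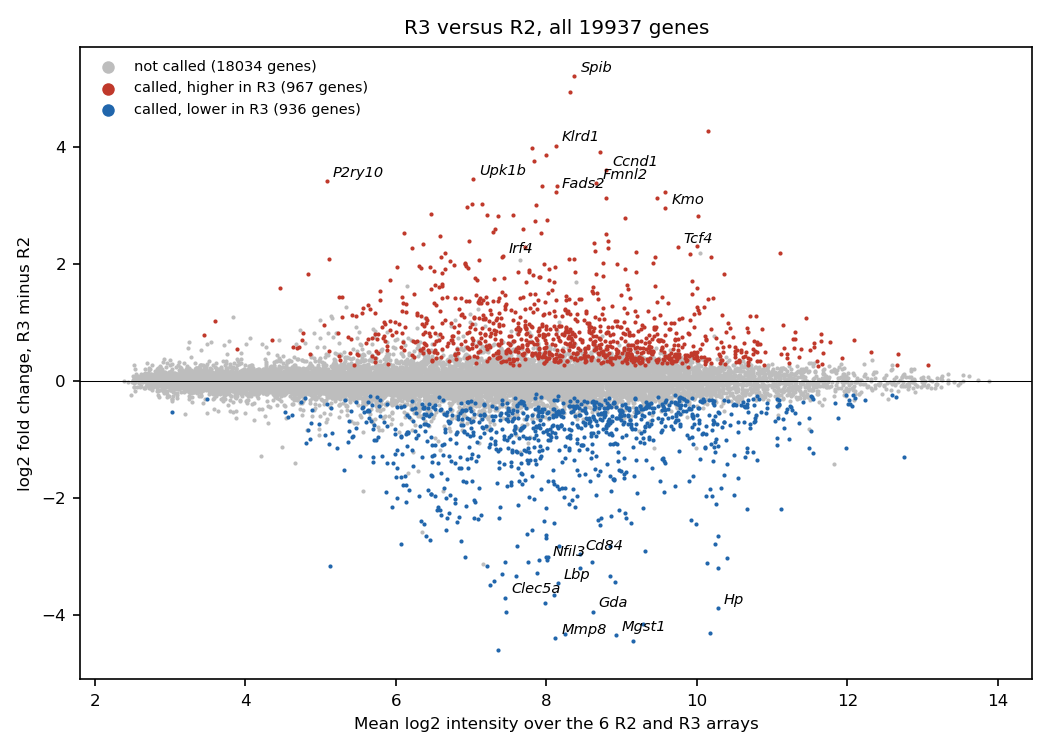
Log2 fold change of R3 over R2 (vertical axis) against the mean log2 intensity of the 6 arrays (horizontal axis). Each point is 1 of 19937 genes, red where called higher in R3 (967), blue where called lower (936), gray otherwise; *Spib* stands at 5.22 and *Mmp8* at −4.41.

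**Figure D2:**
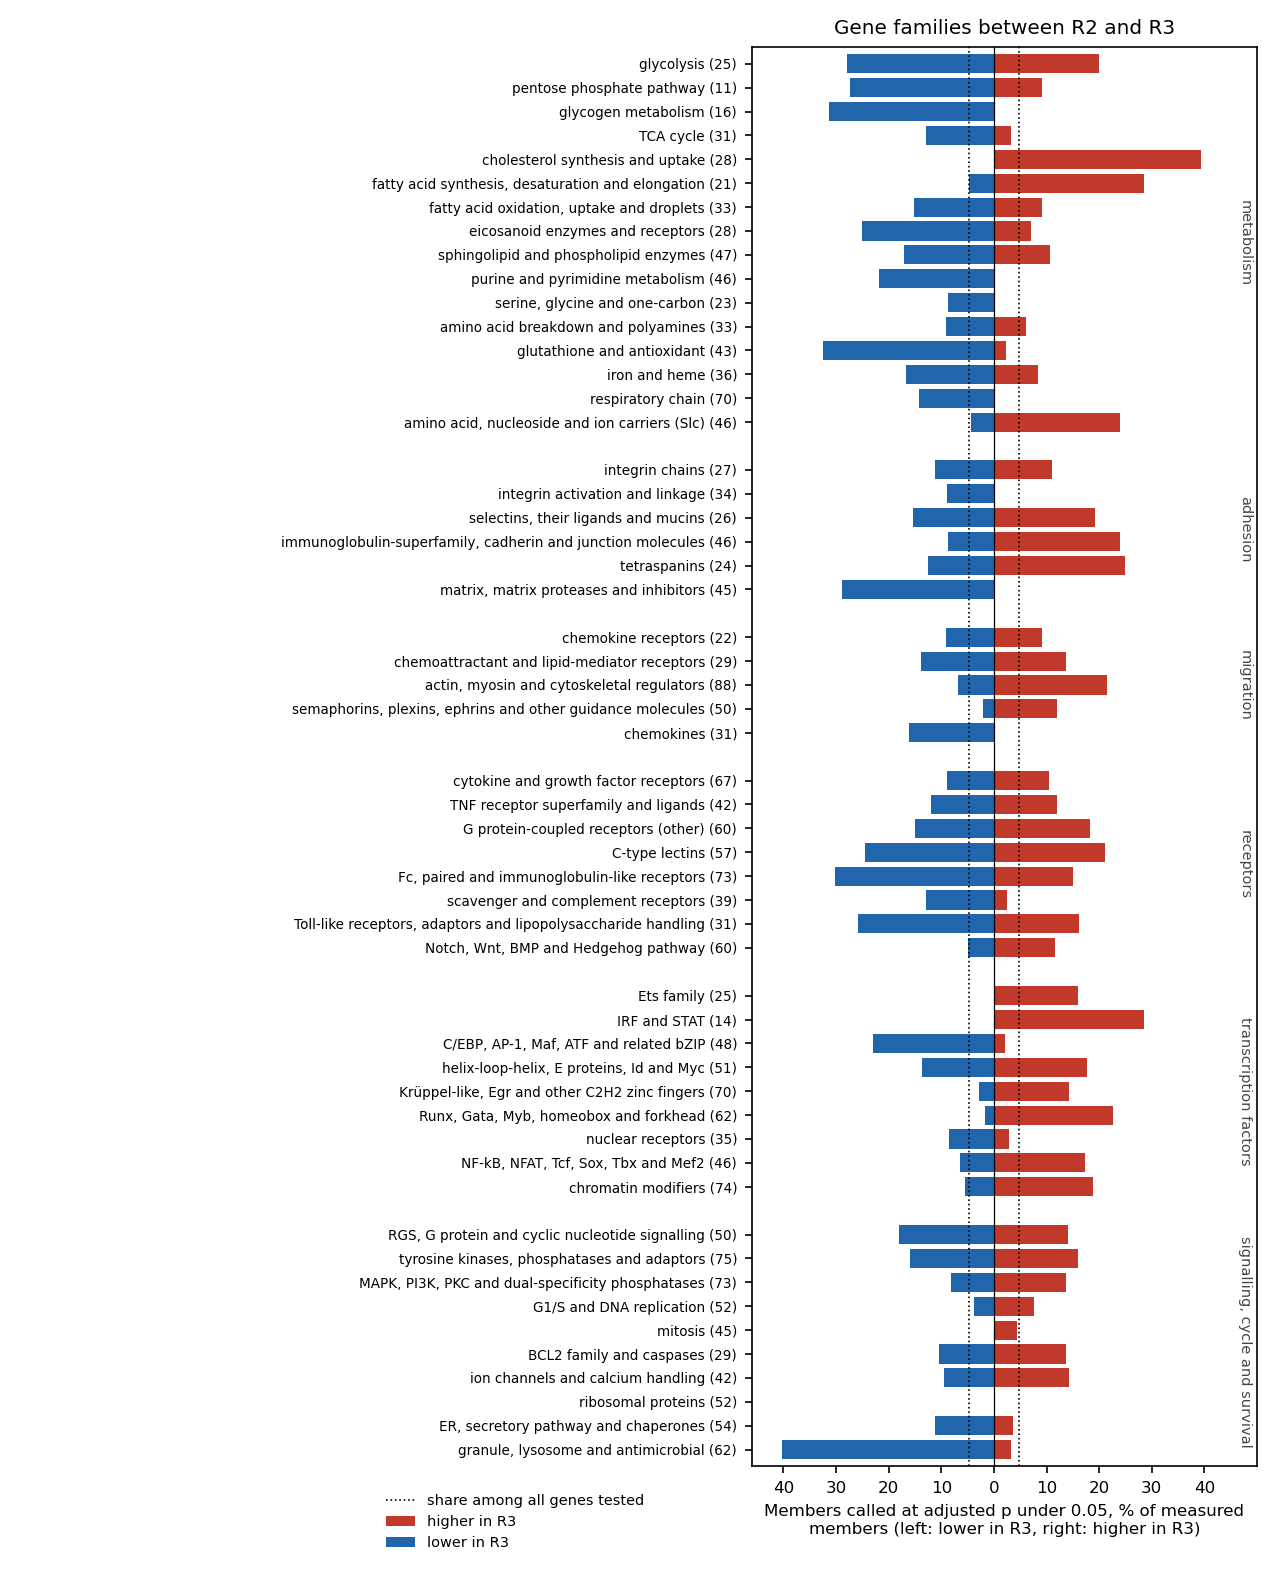
Share of the measured members of each gene list shown that were called higher in R3 (red, to the right) or lower in R3 (blue, to the left), with the number measured in parentheses. Dotted lines mark the shares among all genes tested, 4.85% higher and 4.69% lower; cholesterol, Ets, and IRF and STAT genes lie on the right alone, and matrix, glycogen, and nucleotide genes on the left alone.

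Metabolic genes changed in both directions. Of 534 genes in 16 metabolic lists, 51 were higher in R3 and 86 lower. The share called was 25.7%, beside 9.55% of all genes and 17.4% of those above the median level. The sides held different pathways: sterol and fatty acid synthesis, kynurenine breakdown, and carriers were on the R3 side, and glutathione, nucleotide, and glycogen genes were on the R2 side. The change in each measured member is drawn in the plot of metabolic lists, and these metabolic, adhesion, and other families are set side by side in the plot of families.

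Sterol and fatty acid synthesis build the membranes of growing cells. Of 28 measured genes in the list named cholesterol synthesis and uptake, 11 were higher in R3 and none lower, with a median log2 fold change of 0.42. These were 6 of 17 synthesis enzymes, 2 of 6 regulators, *Srebf2* and *Scap*, and 3 of 5 other genes, the exporters *Abca1* and *Abcg1* and the lysosomal transporter *Npc1*, which act in neither synthesis nor uptake. The largest change was that of *Sqle*, squalene epoxidase, at 7.11, 6.70, and 7.02 in R2 and 8.59, 8.46, and 8.02 in R3, or 1.41 on the log2 scale (standard error 0.28, adjusted p = 0.0109). All R3 arrays were above all R2 arrays, and the adjusted p was 0.0512 without R2 replicate 2. *Hsd17b7*, which reduces a sterol ketone in the same pathway, rose by 1.08. The other 9 were *Cyp51*, *Sc5d*, *Srebf2*, *Abca1*, *Hmgcs1*, *Scap*, *Npc1*, *Abcg1*, and *Dhcr7*, named after their values were seen, with log2 fold changes from 0.45 for *Dhcr7* to 0.96 for *Cyp51*. *Srebf2*, the transcription factor that drives the pathway, was among them at 0.89 (adjusted p = 0.000306). Without the arrays of replicate 3, 2 members were called higher.

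Of 21 genes of fatty acid synthesis, 6 were higher and 1, the elongase *Elovl7*, was lower, at −1.004, a call that did not hold with the label date as a block (adjusted p = 0.0568). *Fads2*, the desaturase at the entry to long polyunsaturated fatty acids, changed most, at 6.40, 6.41, and 6.72 in R2 and 9.84, 9.51, and 9.86 in R3. R3 was 9.36-fold above R2 (log2 fold change 3.23, standard error 0.25, adjusted p = 4.18e-05), and the lowest R3 array was over 2 log2 units above the highest R2 array. *Fasn*, fatty acid synthase, rose by 0.79 (adjusted p = 0.000333), and the desaturase *Scd2* by 1.28. *Fads1*, the partner desaturase of *Fads2*, was 1.23 higher with an adjusted p of 0.0326, which became 0.061 to 0.125 when any 1 of the R2 or R3 arrays was left out. In the list of fatty acid oxidation, uptake, and droplets 3 of 33 genes were higher and 5 lower, led by *Lpl*, the lipase that releases fatty acids from lipoproteins, at 8.57, 8.68, and 8.40 in R2 and 6.20, 6.14, and 6.28 in R3 (log2 fold change −2.34, adjusted p = 3.76e-06). *Cpt1a*, which admits fatty acids to mitochondria, differed by 0.11 (adjusted p = 0.403).

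**Figure D3:**
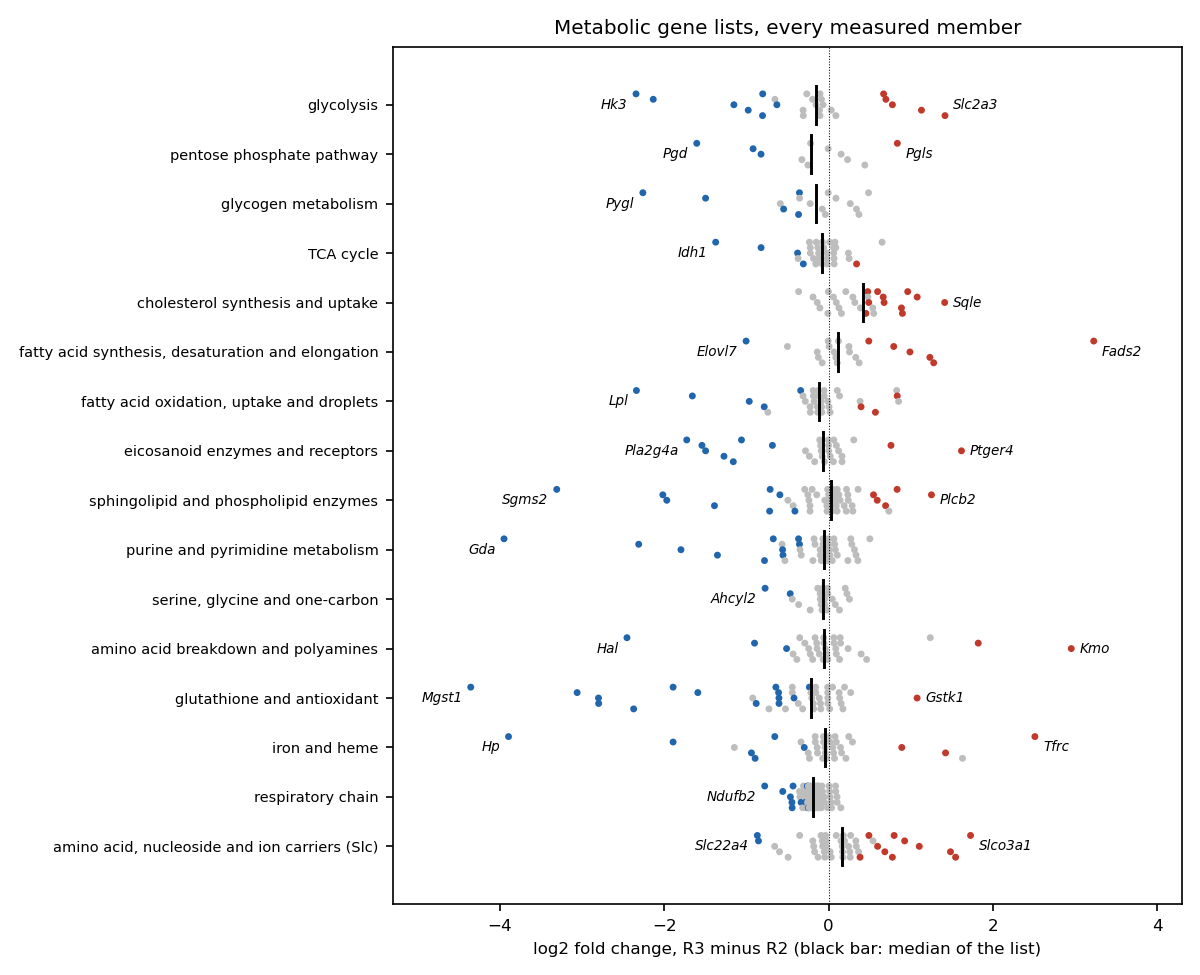
Log2 fold change of R3 over R2 (horizontal axis) of every measured member of the 16 metabolic lists (rows). Red points were called higher in R3, blue points lower, gray points not called, and the black bar is the median of the list, 0.42 for cholesterol and −0.21 for glutathione genes; the called members at the ends of each row are named.

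Sugar metabolism was split. Of 25 measured glycolytic genes 5 were higher and 7 lower. The glucose transporter *Slc2a3* was at 5.88, 5.94, and 5.90 in R2 and 7.42, 7.39, and 7.16 in R3, 2.67-fold higher (log2 fold change 1.42, standard error 0.10, adjusted p = 2.58e-05), while *Hk3*, a hexokinase of myeloid cells, was at 8.31, 8.18, and 8.12 and 5.98, 5.91, and 5.71, 5.07-fold lower in R3 (log2 fold change −2.34, standard error 0.13, adjusted p = 5.57e-06). Both genes had tight groups far apart. Isoforms of 1 enzyme differed in direction: *Aldoa* fell by 1.15 on the log2 scale (adjusted p = 0.000419) and *Aldoc* was 1.13 higher (adjusted p = 0.0109, and 0.0538 without R2 replicate 1). *Ldhb* was lower by 4.39-fold, *Pkm*, pyruvate kinase, by 1.75-fold, and *Hk2* differed by −0.15 on the log2 scale (adjusted p = 0.683). Glycogen genes gave 5 lower and none higher of 16, led by *Pygl*, the phosphorylase that breaks glycogen down, at 10.16, 10.18, and 10.16 in R2 and 8.23, 7.58, and 7.91 in R3 (log2 fold change −2.26, adjusted p = 1.8e-05). In the pentose phosphate pathway 3 of 11 were lower and 1 higher, and *Pgd*, which makes NADPH there, fell by 1.60 on the log2 scale from a mean of 11.16 to 9.56.

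NADPH is also what glutathione reductase spends, and glutathione genes were lower in R3 as well. Of 43 measured antioxidant genes 14 were lower and 1 higher, with a median of −0.21. *Mgst1*, a membrane glutathione transferase, was at 11.06, 11.20, and 11.05 in R2 and 6.82, 6.43, and 6.99 in R3, 20.4-fold lower (log2 fold change −4.35, standard error 0.13, adjusted p = 5.6e-07). *Gsr*, glutathione reductase itself, was at 11.03, 11.11, and 11.17 against 8.62, 8.81, and 8.78 (log2 fold change −2.37, adjusted p = 1.42e-05). All R2 arrays were above all R3 arrays in both genes, by more than 2 log2 units. *Mgst2*, *Gstm1*, and *Gpx3*, a secreted glutathione peroxidase, changed by −3.06, −2.80, and −2.80, and *Idh1*, a further cytosolic source of NADPH, by −1.37 (adjusted p = 3.44e-05). The exception was *Gstk1* at 1.08, with an adjusted p of 0.048 that became 0.0578 with the label date as a block and 0.0505 after median centering of the arrays.

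Nucleotide genes were on the R2 side: of 46 measured, 10 were lower in R3 and none higher. *Gda*, guanine deaminase, was at 10.55, 10.58, and 10.64 in R2 and 6.50, 6.48, and 6.93 in R3, and *Xdh*, which turns its product xanthine into uric acid, at 9.96, 10.03, and 10.04 and 7.68, 7.63, and 7.78. These are 15.4-fold and 4.96-fold lower levels in R3 (adjusted p = 5.1e-07 and 1.52e-06). *Aprt*, which salvages adenine, fell by 1.35 on the log2 scale. Of 70 genes of the respiratory chain 10 were lower and none higher, by small amounts, the largest being *Ndufb2*, a subunit of complex I, at −0.78, with a median of −0.19 over the list. The share called, 14.3%, stands beside 17.4% called and 8.49% called lower among all genes above the median level. After median centering of the arrays 4 were called, and without the arrays of replicate 3, 1 was called lower. The tryptophan enzymes *Kmo* and *Kynu*, which act on kynurenine and on the product of *Kmo*, rose together, *Kynu* from 6.63, 6.75, and 7.36 in R2 to 8.79, 8.82, and 8.59 in R3 (log2 fold change 1.82, adjusted p = 0.000433) and *Kmo* by 2.95. *Hal*, which opens histidine breakdown, went from 7.54, 7.82, and 7.43 to 4.93, 5.22, and 5.27 in the opposite direction (log2 fold change −2.45, adjusted p = 3.39e-05).

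Iron and heme genes also went both ways, 3 of 36 higher and 6 lower. The transferrin receptor *Tfrc* was at 7.67, 7.56, and 7.41 in R2 and 10.09, 10.13, and 9.94 in R3, 5.7-fold higher (log2 fold change 2.51, standard error 0.12, adjusted p = 2.86e-06). *Cd163*, the receptor for haptoglobin bound to hemoglobin, rose by 1.42, while *Hp*, haptoglobin, changed by −3.89 and *Hmox1*, heme oxygenase, by −1.89 (adjusted p = 0.000257). Among lipid mediators 7 of 28 genes were lower and 2 higher. The lower ones included the leukotriene B4 receptor *Ltb4r1* at −1.54 and the prostaglandin E2 receptor *Ptger2* at −1.27. *Ptger4*, another receptor for the same prostaglandin, was at 8.64, 8.63, and 8.64 in R2 and 10.38, 10.31, and 10.08 in R3, 3.07-fold higher (adjusted p = 5.72e-06). Sphingolipid genes that fell included *Sgms2*, a sphingomyelin synthase, from 9.17, 9.09, and 8.92 to 4.89, 5.99, and 6.37, with R3 replicate 1 the lowest, and *Galc*, which degrades galactosylceramide, at −2.02. Of 46 solute carriers 11 were higher and 2 lower, with *Slco3a1* the largest at 1.73, and without the arrays of replicate 2, 2 were called higher. *Phgdh*, *Arg1*, and *Slc7a11* were not called, at −0.07, −0.11, and 0.19.

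Adhesion genes changed both ways. Of 202 genes in 6 lists, 25 were higher in R3, the gated *Itgax* included, and 30 lower. The share called was 27.2%, beside 9.55% of all genes and 17.4% of those above the median level. Cell-to-cell adhesion molecules and tetraspanins were among those that rose, and extracellular matrix genes among those that fell. *Itgb2*, the β2 chain that pairs with CD11c and CD11b, differed by 0.03 (standard error 0.07, adjusted p = 0.912), *Itgal* by −0.28, and *Itga4* by −0.26 (adjusted p = 0.072), while *Itgam*, which encodes CD11b, was at 10.37, 10.40, and 10.49 in R2 and 9.30, 9.44, and 9.62 in R3, or −0.96 on the log2 scale (standard error 0.09, adjusted p = 0.000143). *Itga1*, a collagen-binding chain, was the largest change down, from 10.10, 10.01, and 9.72 to 7.11, 7.95, and 7.35 (log2 fold change −2.47, adjusted p = 4.63e-05). The calls among the 27 chains were thus 3 higher, *Itgax*, *Itgb7*, and *Itgb1*, and 3 lower, *Itga1*, *Itgam*, and *Itgb5*, of which *Itgb7* at 0.74, *Itgb1* at 0.59, and *Itgb5* at −0.92 were named after their values were seen. The call of *Itgax* follows from the gates and is not a result.

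Of 46 immunoglobulin-superfamily, cadherin, and junction genes 11 were higher in R3 and 4 lower. *L1cam*, a homophilic adhesion molecule best known from axons, was at 8.45, 8.55, and 8.15 in R2 and 10.50, 10.56, and 10.46 in R3, 4.36-fold higher (log2 fold change 2.12, standard error 0.13, adjusted p = 1.37e-05). *Cadm3*, a nectin-like molecule, was at 5.66, 5.59, and 5.85 and 7.21, 7.73, and 7.90 (log2 fold change 1.91, adjusted p = 0.000251). Neither gene had an overlap between the populations. *Jaml*, a junctional adhesion molecule of leukocytes, *Cd226*, a receptor for nectins, and *Cd244a*, a SLAM family receptor, rose by 1.95, 1.85, and 1.83, and *Pecam1*, named after its values were seen, by 1.51. The SLAM family receptor *Cd84* went the other way, from 9.92, 10.15, and 9.70 to 6.77, 6.99, and 7.11 (log2 fold change −2.97, adjusted p = 2.12e-06). Among 24 tetraspanins 6 were higher and 3 lower: *Upk1b*, a uroplakin first described in bladder, was at 5.59, 4.96, and 5.34 in R2 and 9.54, 8.34, and 8.37 in R3, 10.9-fold higher with R3 replicate 1 above the others (adjusted p = 0.000135), *Tspan13* rose by 1.92, and *Tspan32* changed by −2.32. *Cd9* differed by 0.10 and was not called.

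Leukocytes roll on selectins through glycans, and of 26 genes for selectins, their ligands, and mucins 5 were higher and 4 lower. *Fut7*, the fucosyltransferase that completes selectin ligands, was at 7.35, 7.38, and 7.44 in R2 and 8.48, 8.50, and 8.63 in R3 (log2 fold change 1.15, standard error 0.08, adjusted p = 1.94e-05), and *Selplg*, the protein that carries such glycans, rose by 0.46 (adjusted p = 0.00214), while *Sele*, which encodes E-selectin, changed by −1.41 (adjusted p = 0.00564). *Icam1* and *Vcam1* were not called, at 0.06 and 0.05. Matrix genes and matrix proteases gave 13 lower and none higher of 45. *Mmp8*, a neutrophil-type collagenase, was at 10.14, 10.37, and 10.46 in R2 and 5.44, 5.68, and 6.63 in R3 (log2 fold change −4.41, adjusted p = 1.7e-05). *Plaur*, the receptor that focuses urokinase on the cell surface, was at 9.39, 9.59, and 9.39 and 6.97, 7.49, and 7.44 (log2 fold change −2.16, adjusted p = 1.73e-05). *Tgfbi* and *F13a1*, which encode a matrix protein and a subunit of the clotting factor that cross-links fibrin, had nearly equal values among the R2 arrays and changed by −2.20 and −2.20. *Vcan*, the proteoglycan versican, was lower by 10.8-fold, and its adjusted p of 0.00457 became 0.13 without the arrays of replicate 2.

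**Figure D4:**
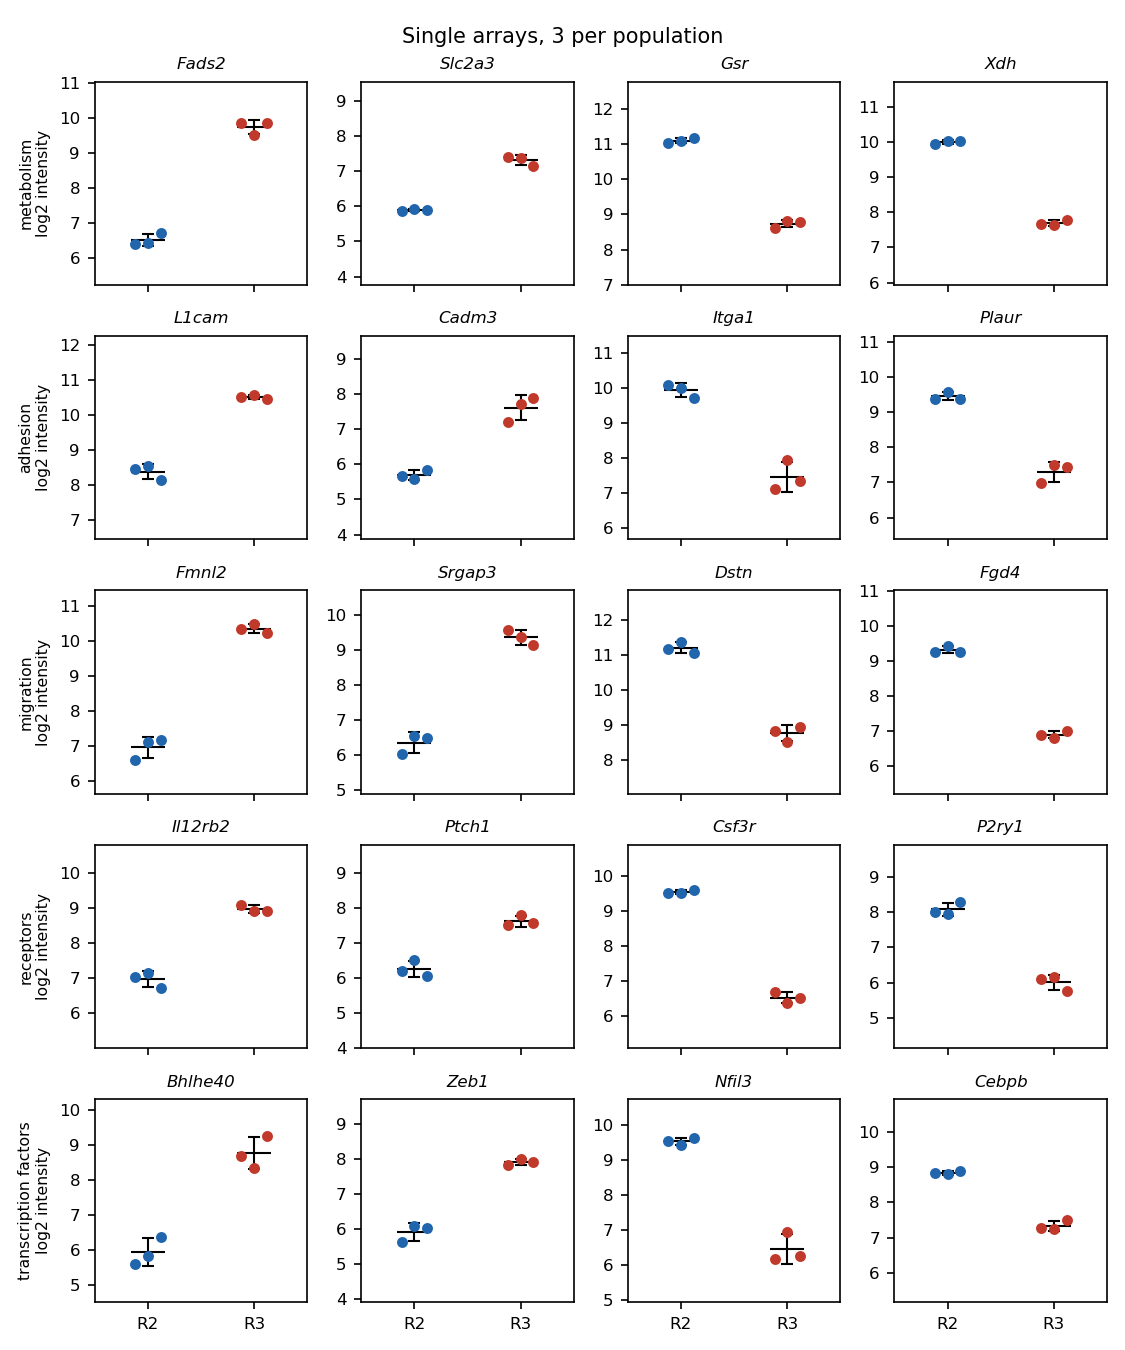
Log2 intensity (vertical axis, with the same span in every panel) of 20 called genes on the 3 R2 arrays (blue) and 3 R3 arrays (red), with the mean and SD as black bars, for 4 genes from each of 5 families. The R2 and R3 arrays do not overlap in any panel, as in every called gene and in 24.8% of all genes, and *Gsr* is at a mean of 11.11 in R2 and 8.73 in R3.

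Cell migration needs receptors for guidance cues and a cytoskeleton that carries out the movement. Of 290 genes in 6 lists 45 were higher and 33 lower. The share called was 26.9%, beside 9.55% of all genes and 17.4% of those above the median level. Of 22 chemokine receptors 4 were called (18.2%): *Ackr1*, a decoy receptor, and *Cx3cr1* were higher, at 1.23 and 0.63, and *Ccr1* and *Cxcr4* lower, at −1.31 and −0.37. *Cxcr4*, which retains cells in the BM, had an adjusted p of 0.0194, 0.129 after median centering, and 0.0776 with the date blocked over the 6 arrays alone, and *Ccr1* had 0.0089, 0.142 without the arrays of replicate 1, and 0.0597 with that block. *Ccr2*, which monocytes need to leave the BM, was not called, at −0.09 (standard error 0.07, adjusted p = 0.571), nor was *Ccr7*, which guides mature DCs to lymph nodes, at 0.12 (adjusted p = 0.697), nor *S1pr1* at −0.07. Outside the chemokine family, the lysophospholipid receptor *P2ry10* rose by 3.42 and *Gpr65*, a proton sensor, was at 10.36, 10.39, and 10.35 in R2 and 9.12, 9.13, and 9.26 in R3 (log2 fold change −1.20, adjusted p = 4.74e-05). Of 31 chemokines 5 were lower and none higher (16.1% called), with *Cxcl10*, an interferon-induced ligand, at −1.33.

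Switches of actin assembly moved in both directions. *Srgap3*, a GTPase-activating protein for Rac, was at 6.03, 6.55, and 6.51 in R2 and 9.58, 9.38, and 9.15 in R3, 8.05-fold higher (log2 fold change 3.01, standard error 0.17, adjusted p = 7.82e-06). *Arhgap5*, a further GTPase-activating protein, rose by 2.27. Exchange factors of the Fgd family for Cdc42 moved apart: *Fgd2* was at 8.19, 8.29, and 8.29 in R2 and 9.83, 9.79, and 9.55 in R3 (log2 fold change 1.47, adjusted p = 2.65e-05) and *Fgd4* at 9.26, 9.43, and 9.26 and 6.87, 6.80, and 7.001 (log2 fold change −2.42, adjusted p = 6.94e-06). *Arhgef37* and *Arhgap24* were lower, at −3.11 and −1.84. The GTPases *Rac2* and *Cdc42* themselves were not called, at −0.09 and 0.02.

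Of 88 actin, myosin, and cytoskeletal genes 19 were higher in R3 and 6 lower. *Fmnl2*, a formin that elongates actin filaments at the leading edge, was at 6.62, 7.11, and 7.18 in R2 and 10.35, 10.48, and 10.23 in R3, 10.4-fold higher (log2 fold change 3.38, standard error 0.21, adjusted p = 1.17e-05). *Enah*, which shields growing filament ends, rose from 5.43, 5.75, and 5.85 to 7.19, 7.30, and 7.25 (adjusted p = 0.000103), and *Septin6*, *Cnn3*, and *Marcks* rose by 1.86, 1.33, and 1.13. *Dstn*, destrin, which severs and depolymerizes filaments, was at 11.18, 11.38, and 11.06 in R2 and 8.83, 8.51, and 8.95 in R3, 5.44-fold lower (log2 fold change −2.44, standard error 0.14, adjusted p = 6.55e-06), with no array of 1 population near the other. *Svil*, supervillin, fell by 1.31 on the log2 scale, and *Actb* differed by 0.02 (adjusted p = 0.91). Guidance molecules gave 6 higher and 1 lower of 50 (14% called), led by *Sema4c* at 1.42 and the semaphorin receptor *Plxnc1* at 1.07. Of all genes 9.55% were called, and 17.4% of those above the median level.

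Of 427 receptor genes 131 were called (30.7%, beside 9.55% of all genes and 17.4% of those above the median level). Of these, 59 were higher in R3 and 72 lower. Cytokine receptors were balanced, with 7 of 67 higher and 6 lower, *Flt3* included (19.4% called). *Il12rb2*, the signaling chain of the interleukin 12 receptor, was at 7.03, 7.16, and 6.72 in R2 and 9.10, 8.91, and 8.91 in R3, 4.01-fold higher (log2 fold change 2.003, standard error 0.21, adjusted p = 0.000267). *Lifr*, the leukemia inhibitory factor receptor, rose from 6.36, 6.93, and 7.16 to 8.81, 8.69, and 8.66 (adjusted p = 0.000576), and *Eng*, a TGF-β coreceptor, by 1.07. *Csf3r*, which binds the granulocyte growth factor G-CSF, was lower by 8.11-fold. Both chains of the GM-CSF receptor were slightly lower, *Csf2ra* at −0.70 (adjusted p = 0.0176) and *Csf2rb* at −0.70 (adjusted p = 0.019), and when single R2 or R3 arrays were left out these rose to at most 0.0773 and 0.0846, and the former was 0.0588 with the date blocked over the 6 arrays alone. *Kit*, whose protein the gate removed too, was 0.57 higher and not called (adjusted p = 0.0733), although it was called with the date blocked (0.0465), and *Il7r* was 0.38 higher and not called (adjusted p = 0.0794).

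In the TNF receptor superfamily 5 of 42 genes rose and 5 fell. *Tnfsf9*, the ligand of the T cell costimulator 4-1BB, was at 6.64, 6.62, and 6.43 in R2 and 8.69, 9.01, and 8.88 in R3 (log2 fold change 2.29, standard error 0.19, adjusted p = 6.93e-05). *Tnfrsf13c*, the receptor for the B cell survival factor BAFF, rose by 1.10 from a mean of 7.10. The death receptors *Fas* and *Tnfrsf21* changed by −1.97 and −1.62, *Tnfrsf1b*, the second TNF receptor, by −1.55, and *Cd40* by −0.16 (not called). Among other G protein-coupled receptors 11 of 60 were higher and 9 lower: the histamine receptor *Hrh1* was at 6.61, 6.47, and 6.57 in R2 and 8.10, 8.79, and 8.07 in R3 (log2 fold change 1.77, adjusted p = 0.000169), with R3 replicate 2 the highest, the ADP receptor *P2ry1* at 8.01, 7.95, and 8.30 and 6.09, 6.16, and 5.77 (log2 fold change −2.08, adjusted p = 1.73e-05), and the cannabinoid receptor *Cnr2* changed by −2.08. In the Notch, Wnt, BMP, and Hedgehog list 7 of 60 were higher and 3 lower. The share called was 16.7%, beside 9.55% of all genes and 17.4% of those above the median level. *Ptch1*, the receptor and target of Hedgehog ligands, was at 6.19, 6.50, and 6.04 in R2 and 7.49, 7.78, and 7.56 in R3 (log2 fold change 1.37, adjusted p = 0.000856). *Notch2* was 0.30 higher (adjusted p = 0.0147), but not with the block over the 6 arrays alone (0.0618), and *Notch1* differed by −0.18.

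Lectins and paired receptors sense glycans, antibody, and self. Of 57 C-type lectins 12 were higher and 14 lower. *Klrd1*, which encodes CD94, a chain of natural killer cell receptors, was at 5.51, 6.20, and 6.61 in R2 and 10.04, 10.46, and 9.91 in R3, 16.3-fold higher (log2 fold change 4.03, standard error 0.27, adjusted p = 1.88e-05). *Cd209a* and *Cd209d*, relatives of DC-SIGN, rose by 2.83 and 3.87, and as near-copies of each other they may share probe signal. *Clec5a*, an activating receptor of myeloid cells, was at 9.33, 9.40, and 9.17 in R2 and 5.45, 4.99, and 6.34 in R3, 13.1-fold lower (adjusted p = 5.65e-05), and *Klra2* and *Klrb1f* changed by −3.66 and −2.83. Of 73 Fc, paired, and immunoglobulin-like receptors 22 were lower and 11 higher. *Lilrb4a*, an inhibitory receptor, was at 10.70, 10.96, and 10.65 and 7.41, 8.09, and 8.05 (log2 fold change −2.92, adjusted p = 1.17e-05), and *Trem3*, *Cd177*, and *Siglece* changed by −2.55, −2.39, and −2.18. On the R3 side were *Cd300c*, at 7.34, 7.67, and 7.94 in R2 and 10.68, 10.53, and 10.10 in R3, and *Cd22*, an inhibitory lectin of B cells, at 6.21, 6.22, and 6.22 and 8.21, 7.91, and 7.71 (adjusted p = 1.42e-05 and 6.63e-05).

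Genes for Toll-like receptors and the handling of lipopolysaccharide were called in 13 of 31 cases, 5 higher and 8 lower. *Aoah*, which inactivates lipopolysaccharide, was at 9.54, 9.56, and 9.22 in R2 and 5.58, 5.16, and 5.70 in R3, *Lbp*, which binds it, at 9.74, 9.67, and 10.24 and 6.86, 5.93, and 6.48, and *Tlr4*, its receptor, named after its values were seen, at 7.51, 7.77, and 7.82 and 5.84, 5.66, and 5.74. These are 15.5-fold, 11-fold, and 3.88-fold lower levels in R3 (adjusted p = 1.5e-06, 5.65e-05, and 0.000272). *Tlr13*, which senses bacterial ribosomal RNA, changed by −2.35 and *Irak3*, a brake on Toll-like receptor signaling, by −2.04. *Tlr12*, which senses profilin of protozoa, was at 6.48, 6.15, and 6.45 in R2 and 8.48, 8.72, and 8.30 in R3, 4.4-fold higher (log2 fold change 2.14, adjusted p = 7.31e-06), and *Pik3ap1*, an adaptor that links these receptors to phosphoinositide 3-kinase, rose by 1.53.

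Transcription factor genes leaned towards R3. Of 424 genes in 9 lists, 65 were higher and 31 lower (22.6% called). Of 25 Ets factors, 14 interferon regulatory factors and STATs, 70 zinc fingers, and 62 Runx, homeobox, and forkhead genes, 4, 4, 10, and 14 were higher and none, none, 2, and 1 lower. The shares called were 16%, 28.6%, 17.1%, and 24.2%, beside 17.4% of all genes above the median level. Over all alternatives 1 to 5 Ets genes and 1 to 4 interferon regulatory factor and STAT genes were called higher. Of 48 bZIP factors 11 were lower and 1 was higher.

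**Figure D5:**
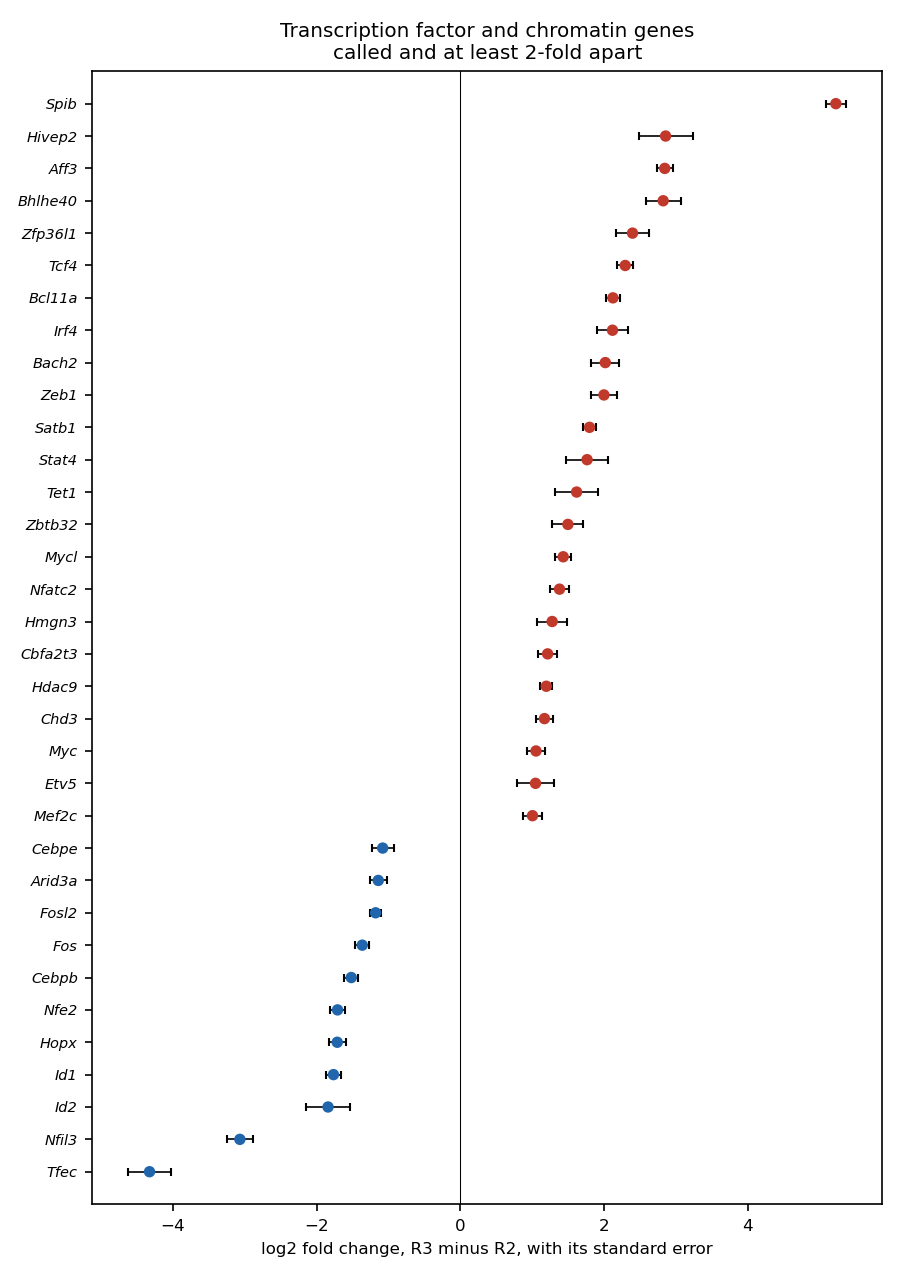
Log2 fold change of R3 over R2 with its standard error (horizontal axis) for the 34 transcription factor and chromatin genes that were called, at least 2-fold apart, and of the same sign on all 3 dates, 23 higher in R3 (red) and 11 lower (blue). *Spib*, at 5.22, and *Tfec*, at −4.32, stand at the ends.

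The Ets family was led by *Spib*, which encodes a lymphoid and DC relative of PU.1, at 5.67, 5.58, and 6.03 in R2 and 10.95, 10.86, and 11.14 in R3, 37.4-fold higher. *Spi1*, which encodes PU.1 itself, was at 11.58, 11.65, and 11.60 and 11.78, 11.63, and 11.82, a difference of 0.13 (standard error 0.10, adjusted p = 0.581). The groups were far apart in *Spib* and overlapped in *Spi1*. Among interferon regulatory factors *Irf4* was at 6.48, 6.58, and 6.003 in R2 and 8.25, 8.36, and 8.80 in R3 (log2 fold change 2.12, standard error 0.21, adjusted p = 0.000224), and *Irf8*, which both monocytes and DCs need, rose by 0.72 (adjusted p = 0.00139, and 0.0702 without the arrays of replicate 2). *Stat4*, which signals for interleukin 12, rose by 1.76, beside the *Il12rb2* chain described above.

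E proteins are helix-loop-helix activators, and Id proteins are partners without a DNA-binding domain that hold them inactive. *Tcf4*, an E protein, rose by 2.29, and the inhibitors *Id2* and *Id1* were lower: *Id2* was at 9.03, 9.73, and 8.63 in R2 and 6.97, 7.35, and 7.54 in R3, and *Id1* at 8.64, 8.61, and 8.44 and 6.97, 6.66, and 6.77 (log2 fold changes −1.84 and −1.76, adjusted p = 0.00435 and 7.82e-06). The call of *Id2* did not hold without the arrays of replicate 1 (adjusted p = 0.115), where R2 and R3 still did not overlap. *Nfil3*, a bZIP repressor, was at 9.55, 9.43, and 9.63 in R2 and 6.18, 6.96, and 6.27 in R3, 8.38-fold lower (log2 fold change −3.07, standard error 0.18, adjusted p = 8.38e-06), and *Zeb1*, a zinc finger repressor, at 5.63, 6.10, and 6.03 and 7.83, 8.000, and 7.92, 3.99-fold higher (adjusted p = 0.000102). *Bhlhe40*, a further helix-loop-helix repressor, rose from 5.62, 5.85, and 6.39 to 8.69, 8.36, and 9.27 (log2 fold change 2.82, adjusted p = 9.17e-05), with replicate 3 the highest in both groups. *Tfec*, a relative of the lysosome regulator Mitf, was at 10.46, 10.36, and 10.43 in R2 and 5.27, 6.71, and 6.30 in R3, 20-fold lower (adjusted p = 2.01e-05).

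In the C/EBP and AP-1 families *Cebpb*, which acts in inflammatory gene expression, was at 8.84, 8.80, and 8.90 in R2 and 7.26, 7.24, and 7.49 in R3 (log2 fold change −1.52, standard error 0.10, adjusted p = 1.59e-05), *Fos*, *Fosl2*, and *Nfe2* changed by −1.36, −1.18, and −1.71, and *Cebpa*, which myeloid progenitors need, was at 9.39, 9.03, and 9.19 and 9.14, 9.03, and 9.32 and was not called (log2 fold change −0.04, adjusted p = 0.918). *Bach2*, the bZIP repressor of lymphoid cells, was the 1 that rose, from 5.96, 5.73, and 6.06 to 7.79, 8.07, and 7.93 (adjusted p = 0.000167). In other lists *Bcl11a*, *Satb1*, a chromatin organizer, *Aff3*, and *Nfatc2* rose, by 2.12, 1.80, 2.84, and 1.38. Of the Myc family, *Mycl*, used by DCs, rose from 6.62, 6.57, and 6.27 to 7.95, 8.01, and 7.78 and *Myc* from 9.36, 9.20, and 9.13 to 10.16, 10.22, and 10.47 (log2 fold changes 1.43 and 1.05, adjusted p = 5.81e-05 and 0.000493). Of chromatin genes 14 of 74 were higher and 4 lower, with *Hdac9* at 1.20 and *Chd3* at 1.17, and without the arrays of replicate 2, 3 were called higher. *Zbtb46*, the DC zinc finger, was 0.94 higher at an adjusted p of 0.025, 0.0747 in the fit to the 6 arrays alone, 0.0573 with the date blocked in that fit, and 0.286 without the arrays of replicate 1. *Klf4* was 0.58 higher and *Runx1* 0.43 higher (adjusted p = 0.00352 and 0.0153, the latter 0.0717 with the block over the 6 arrays alone). *Klf2*, *Nr4a1*, *Pparg*, *Rel*, and *Relb* were not called, at 0.04, 0.06, −0.04, −0.03, and 0.24.

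Since a factor of the Ets family changed most, the RefSeq promoters of the changed genes (GRCm38.p6, 250 bases before to 50 after the gene start) were searched on both strands for GAGGAAG, the core that PU.1 and Spi-B bind. It was in 33 of 191 promoters (17.3%) of the genes at least 2-fold higher in R3, in 52 of 252 (20.6%) of those at least 2-fold lower, and in 2023 of 15613 (13%) of all measured genes. The C/EBP core TTGCGCA was in 2.09%, 1.98%, and 2.76%, the E-box CAGGTG in 18.8%, 12.7%, and 19.2%, the Runx core TGTGGTT in 4.19%, 6.75%, and 4.52%, and the general Ets core GGAAGTG, which can overlap the first, in 14.1%, 12.7%, and 12.2%. These shares are descriptions without a test, and a match is not a bound site. Both the R3 and the R2 side hold GAGGAAG, as the following 60 bases from 6 promoters show, each on the strand of its gene with the match nearest the gene start in capitals, or with its complement CTTCCTC in capitals where it lies on the opposite strand. The *Clec5a* bases hold a further match near their left end, left in lower case. *Fads2*, *Kmo*, and *L1cam* were higher in R3, and *Csf3r*, *Clec5a*, and *Mmp8* were lower.
*Fads2*, chr19:10101652-10101711, minus strand: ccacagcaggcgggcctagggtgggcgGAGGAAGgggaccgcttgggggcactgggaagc
*Kmo*, chr1:175632063-175632122, plus strand: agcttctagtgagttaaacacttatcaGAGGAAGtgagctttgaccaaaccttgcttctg
*L1cam*, chrX:73880815-73880874, minus strand: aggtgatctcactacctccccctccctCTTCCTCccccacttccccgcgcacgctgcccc
*Csf3r*, chr4:126024546-126024605, plus strand: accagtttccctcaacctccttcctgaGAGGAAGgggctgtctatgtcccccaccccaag
*Clec5a*, chr6:40585829-40585888, minus strand: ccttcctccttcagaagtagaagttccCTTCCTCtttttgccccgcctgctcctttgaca
*Mmp8*, chr9:7558182-7558241, plus strand: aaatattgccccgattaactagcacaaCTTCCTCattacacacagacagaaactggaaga

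Signaling genes were mixed, with 49 of 534 higher and 67 lower in 10 lists of signaling, cycle, survival, and organelles. The share called was 21.7%, beside 9.55% of all genes and 17.4% of those above the median level. *Ccnd1*, cyclin D1, was at 7.01, 7.16, and 6.80 in R2 and 10.92, 10.52, and 10.35 in R3, 12.2-fold higher (log2 fold change 3.60, standard error 0.16, adjusted p = 2.12e-06), while *E2f2*, a factor of S phase entry, was at 9.26, 9.20, and 9.18 and 8.03, 7.90, and 8.05 (log2 fold change −1.22, adjusted p = 5.21e-06). Over the cell cycle lists as a whole, 4 of 52 genes of G1, S phase, and replication were higher and 2 lower (11.5% called). Of 45 mitotic genes 2 were higher and none lower (4.44% called). *Mki67* and *Pcna* were not called, at −0.04 and −0.13 (adjusted p = 0.87 and 0.763). *Bcl2*, the survival gene, rose from 8.07, 7.40, and 7.96 to 9.64, 9.39, and 9.24 (log2 fold change 1.61, adjusted p = 0.000321), and *Mcl1* was not called at 0.13.

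Among tyrosine kinases and their adaptors, 12 of 75 each way, *Fyn*, a Src kinase, was at 7.37, 7.54, and 7.69 in R2 and 9.59, 9.96, and 9.75 in R3 and *Bmx*, a Tec kinase, at 7.78, 7.90, and 7.78 and 5.54, 4.85, and 4.91 (log2 fold changes 2.23 and −2.72, adjusted p = 1.53e-05 and 1.26e-05). *Grap2*, an adaptor of T cell receptor signaling, and *Jak2* rose by 3.33 and 1.49, and *Pstpip2* and the phosphatase *Ptpn22* changed by −2.64 and −2.11. The calcium-activated potassium channel *Kcnn4* rose from 7.68, 7.23, and 7.43 to 9.77, 9.56, and 10.10 (adjusted p = 0.000167), and *Pde7a* and *Pde2a*, phosphodiesterases, changed by 1.38 and −1.73. *Trp53i11* and *Rgl1*, an exchange factor for Ral, were among the largest changes of all, at 3.91 and 3.77, and *Plcb1*, a phospholipase C, was at −3.49. Granule and lysosome genes gave 25 lower and 2 higher of 62, with *Mpo*, *Elane*, and *Ncf4*, a subunit of the NADPH oxidase, at −4.32, −4.16, and −3.10. *Mpo* and *Elane* are also among the neutrophil markers, whose levels on each array are given above. None of 52 ribosomal protein genes was called by limma (1 at an unadjusted p under 0.05, and 1 called by the methods' test).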

How the data were processed

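The authors deposited 1 linear intensity per probe set and array, and their summarization and normalization are not given in the sources used here. Log2 of these intensities was taken for 9 arrays, 3 each of R1, R2, and R3, grouped by their titles. Of 34760 probe sets 21640 named 1 gene, 1321 several, and 11799 none in the platform annotation, and for each of 19937 genes the single-gene probe set with the highest mean level was kept (954 genes had several). Genes were tested with limma 3.58.1 (lmFit and eBayes, R 4.3.3), all 9 arrays in 1 model, contrast R3 minus R2, and p-values were adjusted by Benjamini-Hochberg over all genes. Fold changes are on the log2 scale, and called means an adjusted p under 0.05.

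Labels tie 1 array of each population to a date, which pairs the samples. Deviations of R2 and R3 arrays of a date from their group means correlated at 0.11, 0.074, and 0.15. The study's methods name unpaired tests, so the date was not a block in the main model. With the replicate block 1897 genes were called over 9 arrays and 1689 over the 6 arrays alone.

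Named genes were the sort markers, the 15 largest changes in each direction, up to 6 members at least 2-fold apart per direction and list, and a set of genes a reader would look for, 291 in all, each with the same sign on all 3 dates where chosen for its change. *Ly6c2* and *Runx2* of these were not measured by a single-gene probe set, and some items are not reported here. Members and the 67 lists (2430 genes measured) were chosen with earlier results of these data known. Alternatives covered the arrays, block, scaling, probe sets, low and tied values, pseudocount, variance model, the methods' test, and leaving out arrays; leaving out single R1 arrays was added after seeing the data. The tests were checked on simulated data. The simulated noise was independent between arrays and had no date effect, so that the choice of no block was not checked.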

Additional observations from a re-analysis of the deposited data

How the results depend on the processing

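Of 1903 called genes, 1 changed sign under any alternative, with the mean of all probe sets of a gene. The methods' test, unpaired and with Benjamini-Hochberg adjustment, called 439 genes higher and 454 lower, 173 of them at least 2-fold higher. Leaving out arrays gave 359 to 1125 higher and 398 to 1058 lower, lowest without the arrays of replicate 2 and highest without R1 replicate 1, an alternative added after seeing the data. Leaving out 1 R2 or R3 array gave 1300 to 1664 calls in all. The replicate block gave 1897 calls over 9 arrays and 1689 over 6, and among the named genes it ended 4 calls over 9 arrays, *Gstk1*, *Elovl7*, *Etv5*, and *Ahcyl2* (adjusted p = 0.0578, 0.0568, 0.056, and 0.0748), and 18 over 6, these among them, and made that of *Kit* over 9 (0.0465). Median centering of the arrays moved the median log2 fold change of all genes from −0.007 to 0.044 and the share of calls that were higher from 50.8% to 58.5%.

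Of 259 called genes chosen by the rule for named genes, 167 kept their call under every alternative and none changed sign. Among genes named in the report, *Ahcyl2*, *Aldoc*, *Csf2ra*, *Csf2rb*, *Cxcr4*, *Elovl7*, *Etv5*, *Fads1*, *Gstk1*, *H2-Ab1*, *Klrk1*, *Mcpt8*, *Notch2*, *Runx1*, *Sqle*, and *Zbtb46* lost it without some single R2 or R3 array, with an adjusted p of up to 0.17 for *Gstk1*, 0.144 for *Elovl7*, 0.137 for *Ahcyl2*, 0.125 for *Etv5*, 0.0945 for *Zbtb46*, 0.0844 for *Cxcr4*, 0.0682 for *Runx1*, and 0.0536 for *Notch2*. *Ackr1*, *Cd209a*, *Cx3cr1*, *Hsd17b7*, *Klf4*, *Ndufb2*, *Pkm*, *Scd2*, *Sele*, *Selplg*, *Slco3a1*, and *Stat4*, like *Ccr1*, *Id2*, *Irf8*, and *Vcan*, lost it without the arrays of some date, and *Bcl2*, *Blnk*, *Cd209d*, *Fas*, *Ldhb*, *Plxnc1*, and *Tnfrsf1b* with the methods' test alone. *Tlr4* and the other genes named after their values were seen were not followed through the alternatives.

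List counts varied with the setting. Over all alternatives, genes called higher were 2 to 14 for cholesterol, 9 to 22 for actin, 3 to 20 for chromatin, and 4 to 15 for Runx, homeobox, and forkhead genes, and genes called lower were 9 to 17 for glutathione, 5 to 13 for nucleotides, 1 to 14 for the respiratory chain, 7 to 15 for matrix, 7 to 12 for bZIP, and 14 to 26 for granule genes. The cause was not tested.

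The named genes that turned direction were all uncalled and near 0. After median centering *Cebpa*, *Mki67*, *Pparg*, and *Rel* were at 0.00916, 0.0137, 0.0132, and 0.0232 on the log2 scale, and with quantile normalization *Actb*, *Mki67*, and *Pparg* at −0.0208, 0.00205, and 0.0117. With arrays left out, values ran from −0.129 to 0.061 for *Cebpa*, −0.30 to 0.19 for *Pparg*, −0.062 to 0.027 for *Rel*, −0.159 to 0.097 for *Phgdh*, −0.114 to 0.015 for *S1pr1*, −0.027 to 0.218 for *Cd9*, −0.025 to 0.059 for *Cdc42*, −0.014 to 0.154 for *Icam1*, −0.032 to 0.077 for *Itgb2*, −0.030 to 0.092 for *Klf2*, −0.121 to 0.188 for *Nr4a1*, and −0.010 to 0.151 for *Vcam1*.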
